A study of Mus musculus with 35 samples.

Results

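T (Brachyury), Eomes, Tbx6, Mixl1, Gsc, Mesp1 and Msgn1 are transcription factors that act in the primitive streak and the mesoderm it gives rise to. Their chromatin was followed in mouse embryonic stem cells and in epiblast-like cells, the stage that precedes streak formation in the embryo. The members were chosen by position: all 2-kb tiles that overlap a gene or the 20 kb on either side of it (GRCm38), 160 of the 1362779 tiles in the deposited ATAC-seq matrix. ATAC-seq counts transposase insertions, so more reads in a tile mean more accessible DNA.

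The 35 libraries came from 4 lines at 3 days, with 3 libraries per line and day except 2 for TET_KO at D2. In TET_KO cells Tet1, Tet2 and Tet3 are deleted, whose products oxidise 5-methylcytosine; their parental wild-type line is TET_WT. In DNMT_KO cells the methyltransferase genes Dnmt1, Dnmt3a and Dnmt3b are deleted; their parental wild-type line is DNMT_WT. All lines were grown in 2i/Lif, which holds stem cells in the naive state, at D0, and were labelled as epiblast-like cells (EpiLC) at D1 and D2. Each genotype is 1 line, and the labels do not say whether replicates came from separate cultures, so p-values measure the spread between these libraries, which may be technical.

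Libraries held 4171462 to 23686796 reads over tiles. Windows below are the reads over a gene and 20 kb on each side, on a quantile-normalised log2(reads + 1) scale. Tile values are quantile-normalised log2 RPKM. Where groups are said not to overlap, this describes 2 or 3 libraries each. The share of all tiles or windows that do so is not given, so it is not read as a change. Of all windows, 0.640% changed in either direction at D2 in TET_KO, 1.10% in TET_WT, 2.12% in DNMT_KO and 2.79% in DNMT_WT. The gene lists below were chosen with earlier results of these data known. Of 12 naive pluripotency genes, 6 windows fell at D2 in TET_KO, 4 in TET_WT, 9 in DNMT_KO and 10 in DNMT_WT, and none rose. Of 9 formative epiblast genes, no window rose in TET_KO, 2 in TET_WT, 2 in DNMT_KO and 3 in DNMT_WT, and none fell. Of 8 fibroblast markers and 6 neuroectoderm markers, no window rose at D2 in any line and 1 fell (Fn1, in DNMT_KO, TET_WT and DNMT_WT), and the mean over the fibroblast markers was 7.98 to 8.05 in TET_KO at D2, against 7.89 to 8.02 in TET_KO at D0. D1 libraries were processed differently from the others: they held 5.61 to 46.8% mitochondrial reads, against none at D0 and D2, so in D1 against D0 the day and the processing cannot be told apart.

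In the embryo, Wnt, Nodal and BMP signals induce the primitive streak at the posterior side of the epiblast. T and Eomes are T-box factors switched on early there, and Eomes acts upstream of Mesp1 in cardiac mesoderm. Mixl1 and Gsc are homeobox factors of the streak and of its anterior organiser, and Tbx6 and Msgn1 act in the paraxial and presomitic mesoderm.

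The promoters of the 7 genes differ in CpG content, the substrate of the methyltransferases. The table of promoters from RefSeq (GRCm38.p6, 250 bases before to 50 after the start) held 6 of the 7, all but Mixl1. The median over 27025 promoters was 7 CpG. The Gsc promoter held 25 CpG (percentile 83.2), that of T 17, that of Eomes 10, that of Tbx6 7, and those of Mesp1 and Msgn1 4 each (percentile 38.3). Sequences are shown for Gsc and Msgn1, whose loci changed most and whose promoters lie at opposite ends of this range, and for Mesp1, which held matches to a pair of motifs. Capitals mark each CG, TCACACCT (a T-box half-site), ATCAAAG (a TCF/LEF site, where Wnt signalling ends) and AATCCACA (a FOXH1 site, where Nodal signalling ends), on either strand.
Gsc promoter, chr12:104473187-104473486, minus strand: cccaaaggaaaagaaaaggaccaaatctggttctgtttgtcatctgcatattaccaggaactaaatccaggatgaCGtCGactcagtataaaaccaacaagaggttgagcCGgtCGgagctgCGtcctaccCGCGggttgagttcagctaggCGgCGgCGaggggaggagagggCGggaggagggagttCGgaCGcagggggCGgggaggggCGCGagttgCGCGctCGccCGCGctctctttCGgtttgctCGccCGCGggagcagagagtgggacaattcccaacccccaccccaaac
Msgn1 promoter, chr12:11208899-11209198, minus strand: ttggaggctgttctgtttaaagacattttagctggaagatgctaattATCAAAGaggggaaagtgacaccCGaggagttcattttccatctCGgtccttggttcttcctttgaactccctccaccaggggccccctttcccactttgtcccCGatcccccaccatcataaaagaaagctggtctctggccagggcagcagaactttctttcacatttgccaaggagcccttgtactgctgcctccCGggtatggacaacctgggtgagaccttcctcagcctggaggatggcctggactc
Mesp1 promoter, chr7:79793541-79793840, minus strand: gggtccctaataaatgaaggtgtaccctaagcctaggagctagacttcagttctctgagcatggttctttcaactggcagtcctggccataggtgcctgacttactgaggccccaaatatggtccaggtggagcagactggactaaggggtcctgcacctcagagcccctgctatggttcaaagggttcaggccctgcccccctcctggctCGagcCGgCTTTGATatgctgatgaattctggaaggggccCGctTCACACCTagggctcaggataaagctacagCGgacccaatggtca
The T-box half-site was found in the Mesp1 promoter and in 1.27% of all promoters. The TCF/LEF site was found in the Msgn1 and Mesp1 promoters and in 3.72% of all promoters. The FOXH1 site was in none of the 6 member promoters and in 0.873% of all promoters. Such matches describe the sequence and do not show binding.

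All 7 windows lay above the median window in accessibility over all libraries, and Tbx6 was the highest. The Tbx6 window averaged 1.07 RPKM over all libraries, at percentile 98.4 of 48562 windows with reads. Eomes averaged 0.639 RPKM (percentile 81.0), Mesp1 0.629 (80.0), Msgn1 0.563 (72.7), Gsc 0.524 (67.4), Mixl1 0.506 (64.9) and T 0.437 (53.3), against a median window of 0.419 RPKM. These averages include D1 libraries, whose read totals count mitochondrial reads. The Tbx6 window also holds Aldoa, Gdpd3, Mapk3, Ppp4c and Ypel3, and its most read tile, chr7:126798001-126800000, overlaps Aldoa, a glycolytic enzyme. Its level is thus not that of Tbx6 alone. The Mesp1 window likewise holds Mesp2, a related factor of the somites, and Wdr93, and the Mixl1 window holds Lin9.

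The tile with the gene start was the most read tile of its window for T, Eomes, Gsc and Mesp1. For Mixl1 it was so too, but its start was taken as the more accessible gene end, so the level of its start tile follows in part from that choice. It held 12.7% of the window's reads for Eomes, where 1 tile is 4% of the window. The start tile also overlaps LOC115486424 at T, Gm33408 at Eomes and Gm10000 at Gsc, so its level there is not that of the member alone. Among start tiles of protein-coding genes, the Eomes start tile ranged over the 12 groups from percentile 45.9 to 92.6. The ranges were 42.2 to 83.6 for Mixl1, 51.8 to 80.6 for Tbx6, 46.6 to 75.1 for Mesp1, 35.1 to 58.9 for Gsc, 27.2 to 44.7 for T and 22.8 to 48.1 for Msgn1. The lowest values came from D1 groups for Eomes and T (DNMT_WT) and for Mixl1 and Tbx6 (TET_WT). At D1 the day and the processing cannot be told apart. Away from D1 the lowest Eomes percentile was 64.2, in DNMT_WT at D0. No start tile of a member passed the test in any of the 16 contrasts, and the lowest adjusted p was 0.290, for Tbx6 (limma, Benjamini-Hochberg over 174323 tiles).

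**Figure D1:**
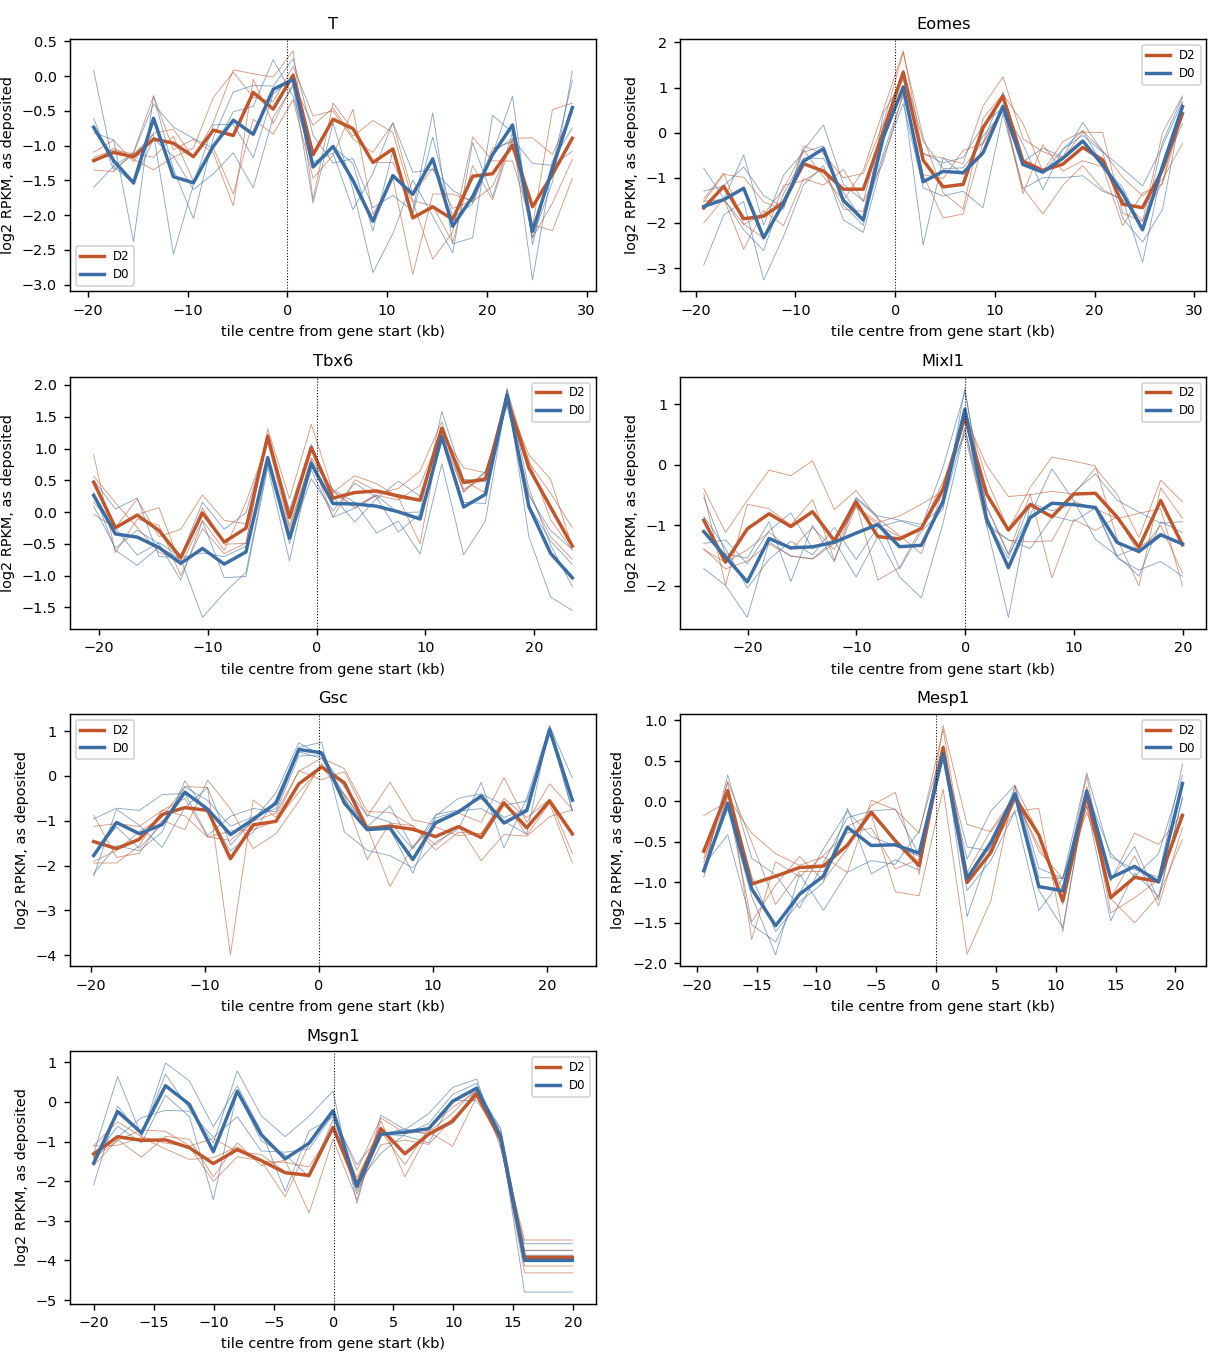
Log2 RPKM as deposited in each 2-kb tile (vertical axis) by the distance of its centre from the gene start in kb (horizontal axis), for the 7 genes. Thin lines are the means of the 4 lines and thick lines the mean of those, at D2 in orange and at D0 in blue; for Mixl1, whose strand is not in the promoter table, distances run along the chromosome, and 3 Msgn1 tiles without reads lie at the floor. The Gsc tile 19.2 to 21.2 kb downstream and the tiles upstream of Msgn1 lie lower at D2 than at D0.

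The clearest event at these loci was the closing of a distal tile of Gsc. The tile chr12:104452001-104454000 begins 19.2 kb downstream of the Gsc start, 17.2 kb beyond the gene's other end, and overlaps no annotated gene. It was among the more accessible tested tiles in naive cells (percentile 95.5 over D0 libraries) and lay at percentile 30.5 over the later libraries. The 12 D0 libraries held 0.71 to 1.65 log2 RPKM with a median of 1.19, and the 23 D1 and D2 libraries held -1.95 to 0.46 with a median of -0.76. All D0 libraries thus lay above all later ones, which is a description and not a further test. The tile was singled out by its calls on these same values, and the share of all tiles separated in this way is not given. The later libraries pool D2 with D1, where the day and the processing cannot be told apart. Tiles were tested by their mean deposited log2 RPKM over all libraries, and this tile averaged -0.59 over D2 libraries and 1.04 over D0 libraries, against a lowest mean of -0.51 among tiles kept, so it passed through its D0 level when set against D2. Without that filter the Gsc tile was not called in TET_WT at D1 (adjusted p = 0.0535) or at D2 (0.0879), and its other calls were kept.

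In the knockouts the Gsc tile did not pass the test at D2. In TET_KO it read 0.13 and -0.09 at D2, against 1.42, 1.28 and 1.02 at D0, a difference of -1.22 ± 0.46 (SE; adjusted p = 0.300). In DNMT_KO it read -0.84, 0.46 and -0.35 at D2, against 1.05, 1.24 and 1.14 at D0, a difference of -1.39 ± 0.42 (adjusted p = 0.0638). The groups did not overlap in either line, which is a description and not a test.

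In the parental lines it passed. In TET_WT the Gsc tile read -1.95, -0.12 and -0.83 at D2, against 0.71, 0.96 and 1.52 at D0. The difference was -2.03 ± 0.42 (adjusted p = 0.00383), from 30 reads in the D2 libraries and 151 in the D0 libraries. In DNMT_WT it read -0.12, -0.41 and -0.50 at D2, against 1.07, 1.51 and 1.65 at D0, a difference of -1.75 ± 0.42 (adjusted p = 0.00907), from 20 and 83 reads. Of the 66 member tiles tested, it was the only 1 called in TET_WT at D2, where 0.594% of all tested tiles were called. In DNMT_WT it was 1 of 2 called among the 66, where 1.82% of all tested tiles were called. Whether these counts exceed those shares was not tested. The TET_WT call was lost without D0 replicate 3 or D2 replicate 1 (adjusted p up to 0.124), and the DNMT_WT call without D0 replicate 2 or 3 (up to 0.0594). No member tile kept its call once libraries were thinned to 1 depth. The difference between knockout and parent in this change was 0.81 ± 0.62 in the TET family (adjusted p = 1) and 0.37 ± 0.59 in the DNMT family (adjusted p = 0.967), so a weaker closing in knockouts was not shown.

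At D1 the Gsc tile was lower than at D0 in all 4 lines. The difference was -1.81 ± 0.42 in TET_KO (adjusted p = 0.0256), -1.77 ± 0.42 in TET_WT (0.0445), -1.98 ± 0.42 in DNMT_KO (0.00584) and -2.38 ± 0.42 in DNMT_WT (0.000475). The D1 groups held 21, 27, 11 and 13 reads in that order of lines. The DNMT calls held without any 1 library. The TET_KO call was lost without D0 replicate 1, 2 or 3 or D1 replicate 1 or 2 (adjusted p up to 0.121), and the TET_WT call without D0 replicate 1, 2 or 3 or D1 replicate 2 or 3 (up to 0.365). Of all tested tiles 0.314% were called at D1 in TET_KO, 0.149% in TET_WT, 0.902% in DNMT_KO and 0.773% in DNMT_WT.

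**Figure D2:**
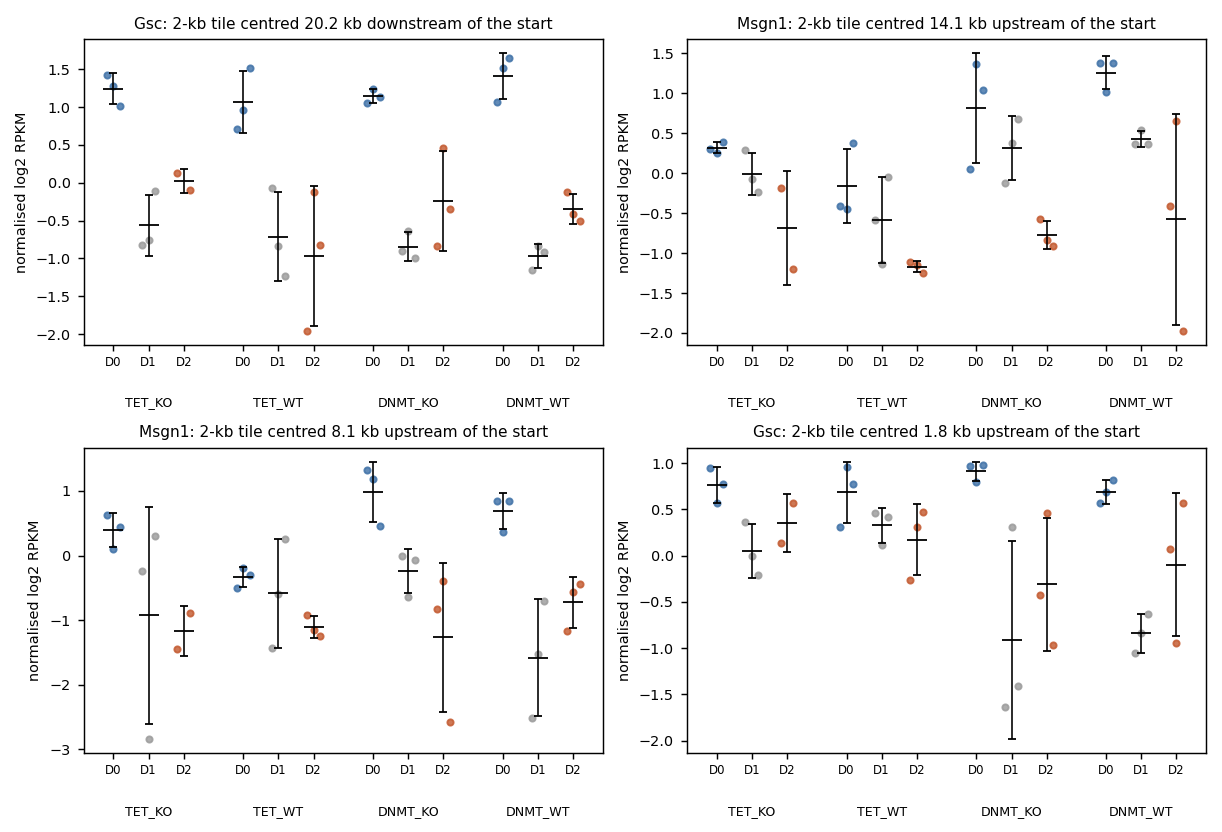
Normalised log2 RPKM (vertical axis) of 4 tiles near Gsc and Msgn1 in each library, by line and day (horizontal axis). Points are libraries, dashes are group means and bars are 1 SD; D0 is blue, D1 grey and D2 orange. In the Gsc tile 20.2 kb downstream, the 12 D0 libraries lie at 0.71 or above and the other 23 at 0.46 or below.

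Closer to Gsc, the tile chr12:104474001-104476000, which begins 0.765 kb upstream of the start and overlaps Gm10000, fell in DNMT_KO at D1. It read -1.64, 0.31 and -1.41 at D1, against 0.96, 0.79 and 0.97 at D0, a difference of -1.82 ± 0.41 (adjusted p = 0.0122), from 12 and 54 reads. The call was lost without D0 replicate 1 or 3 or D1 replicate 1 or 3 (adjusted p up to 0.0883). In DNMT_WT at D1 the difference was -1.53 ± 0.41 (adjusted p = 0.0537). The Gsc start tile itself did not pass the test in any contrast.

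Over the whole Gsc window, accessibility fell in both DNMT lines. In DNMT_KO the window read 7.13, 7.42 and 7.38 at D2, against 7.92, 7.61 and 7.76 at D0, a difference of -0.46 ± 0.12 (adjusted p = 0.0329), or 72.9% of the D0 level. In DNMT_WT it read 7.44, 7.20 and 7.28 at D2, against 7.77, 7.81 and 8.01 at D0, a difference of -0.55 ± 0.12 (adjusted p = 0.00753), or 68.1% of the D0 level. The DNMT_KO call was lost without D0 replicate 1 or 3 or D2 replicate 1 or 3 (adjusted p up to 0.190), and the DNMT_WT call without D0 replicate 3 (0.0541). The window calls at D2 and D1 were also lost with 10 kb on each side, which leaves out the distal tile, or with only the groups compared in the fit. The D1 windows were lower than D0 by similar or larger amounts, at -0.63 ± 0.12 in DNMT_KO (adjusted p = 0.00281) and -0.86 ± 0.12 in DNMT_WT (adjusted p = 0.000132). The TET windows did not pass the test, at -0.07 ± 0.13 in TET_KO (adjusted p = 0.947) and -0.24 ± 0.12 in TET_WT (adjusted p = 0.558) at D2, and at -0.25 ± 0.12 in TET_KO (adjusted p = 0.341) and -0.35 ± 0.12 in TET_WT (adjusted p = 0.263) at D1.

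Msgn1, a bHLH factor that drives presomitic mesoderm maturation, showed the largest fall of a member window at D2. In DNMT_KO the Msgn1 window read 7.02, 7.11 and 7.21 at D2, against 7.82, 7.73 and 7.68 at D0, a difference of -0.63 ± 0.13 (adjusted p = 0.00732), or 64.6% of the D0 level. In DNMT_WT it read 6.82, 6.98 and 6.91 at D2, against 7.57, 7.56 and 7.94 at D0, a difference of -0.79 ± 0.13 (adjusted p = 0.000862), or 57.9% of the D0 level. In both lines all D2 libraries lay below all D0 libraries. Both calls held without any 1 library, with adjusted p up to 0.0486 in DNMT_KO and 0.0113 in DNMT_WT, and were lost with 10 kb on each side or with only the groups compared in the fit.

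In the TET family the Msgn1 windows started lower and did not pass the test. TET_KO read 6.93 and 6.77 at D2, against 7.22, 7.11 and 7.08 at D0, a difference of -0.28 ± 0.14 (adjusted p = 0.542). TET_WT read 6.85, 6.57 and 6.82 at D2, against 7.14, 7.20 and 7.15 at D0, a difference of -0.42 ± 0.13 (adjusted p = 0.142). The groups did not overlap in either line, which is a description and not a test. A difference between the families in this change was not tested. At D1 against D0 the Msgn1 window differed by -0.22 ± 0.13 in TET_KO, -0.32 ± 0.13 in TET_WT, -0.12 ± 0.13 in DNMT_KO and -0.30 ± 0.13 in DNMT_WT, none past the threshold (adjusted p = 0.495, 0.453, 0.658 and 0.258 in that order).

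A pair of tiles upstream of Msgn1 passed the test. The tile chr12:11222001-11224000, 13.1 to 15.1 kb upstream and in no annotated gene, read -0.58, -0.84 and -0.92 in DNMT_KO at D2, against 0.05, 1.36 and 1.04 at D0, a difference of -1.59 ± 0.45 (adjusted p = 0.0403). In DNMT_WT it read -0.41, 0.65 and -1.97 at D2, against 1.37, 1.02 and 1.38 at D0, a difference of -1.83 ± 0.45 (adjusted p = 0.0121). The tile chr12:11216001-11218000, 7.05 to 9.05 kb upstream, read -0.83, -0.40 and -2.57 in DNMT_KO at D2, against 1.32, 1.19 and 0.46 at D0, a difference of -2.26 ± 0.56 (adjusted p = 0.0134). At D1 that tile read -2.51, -1.53 and -0.70 in DNMT_WT, against 0.84, 0.36 and 0.85 at D0, a difference of -2.26 ± 0.56 (adjusted p = 0.0260). The second tile averaged -0.78 deposited log2 RPKM over D1 and D2 libraries and 0.27 over D0 libraries, against the lowest mean kept of -0.51, so it was tested because of its D0 level. The first averaged -0.98 over D2 libraries and 0.41 over D0 libraries. With no filter on tiles none of these calls held, with adjusted p = 0.296 in DNMT_KO and 0.126 in DNMT_WT for the first tile at D2, 0.203 in DNMT_KO at D2 and 0.161 in DNMT_WT at D1 for the second. These tiles rest on few reads: 18 at D2 against 55 at D0 for the first in DNMT_KO, and 16 against 57 for the second. At D2 the first tile's call was lost in DNMT_KO without D0 replicate 2 or 3 or any 1 of the D2 libraries (adjusted p up to 0.246), and in DNMT_WT without D0 replicate 1 or 3 or D2 replicate 3 (up to 0.273). The second tile's call was lost in DNMT_KO without D0 replicate 1 or 2 or D2 replicate 3 (up to 0.210), and in DNMT_WT at D1 without D0 replicate 1, 2 or 3 or D1 replicate 1 or 2 (up to 0.193). In the TET lines both tiles were lower at D2 than at D0 without passing the test, by -1.01 ± 0.50 in TET_KO and -1.01 ± 0.45 in TET_WT for the first tile.

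Both tiles called in DNMT_KO at D2 lay upstream of Msgn1, where 1.82% of tested tiles were called. Of the 66 member tiles tested, 10 rose and 4 fell there at an unadjusted p under 0.05. Here and below, the share of all tiles or windows at that level is not given, so such counts are not read as a change. The 3 Msgn1 tiles chr12:11188001-11194000 held no read at D0 or D2 and were left out.

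**Figure D3:**
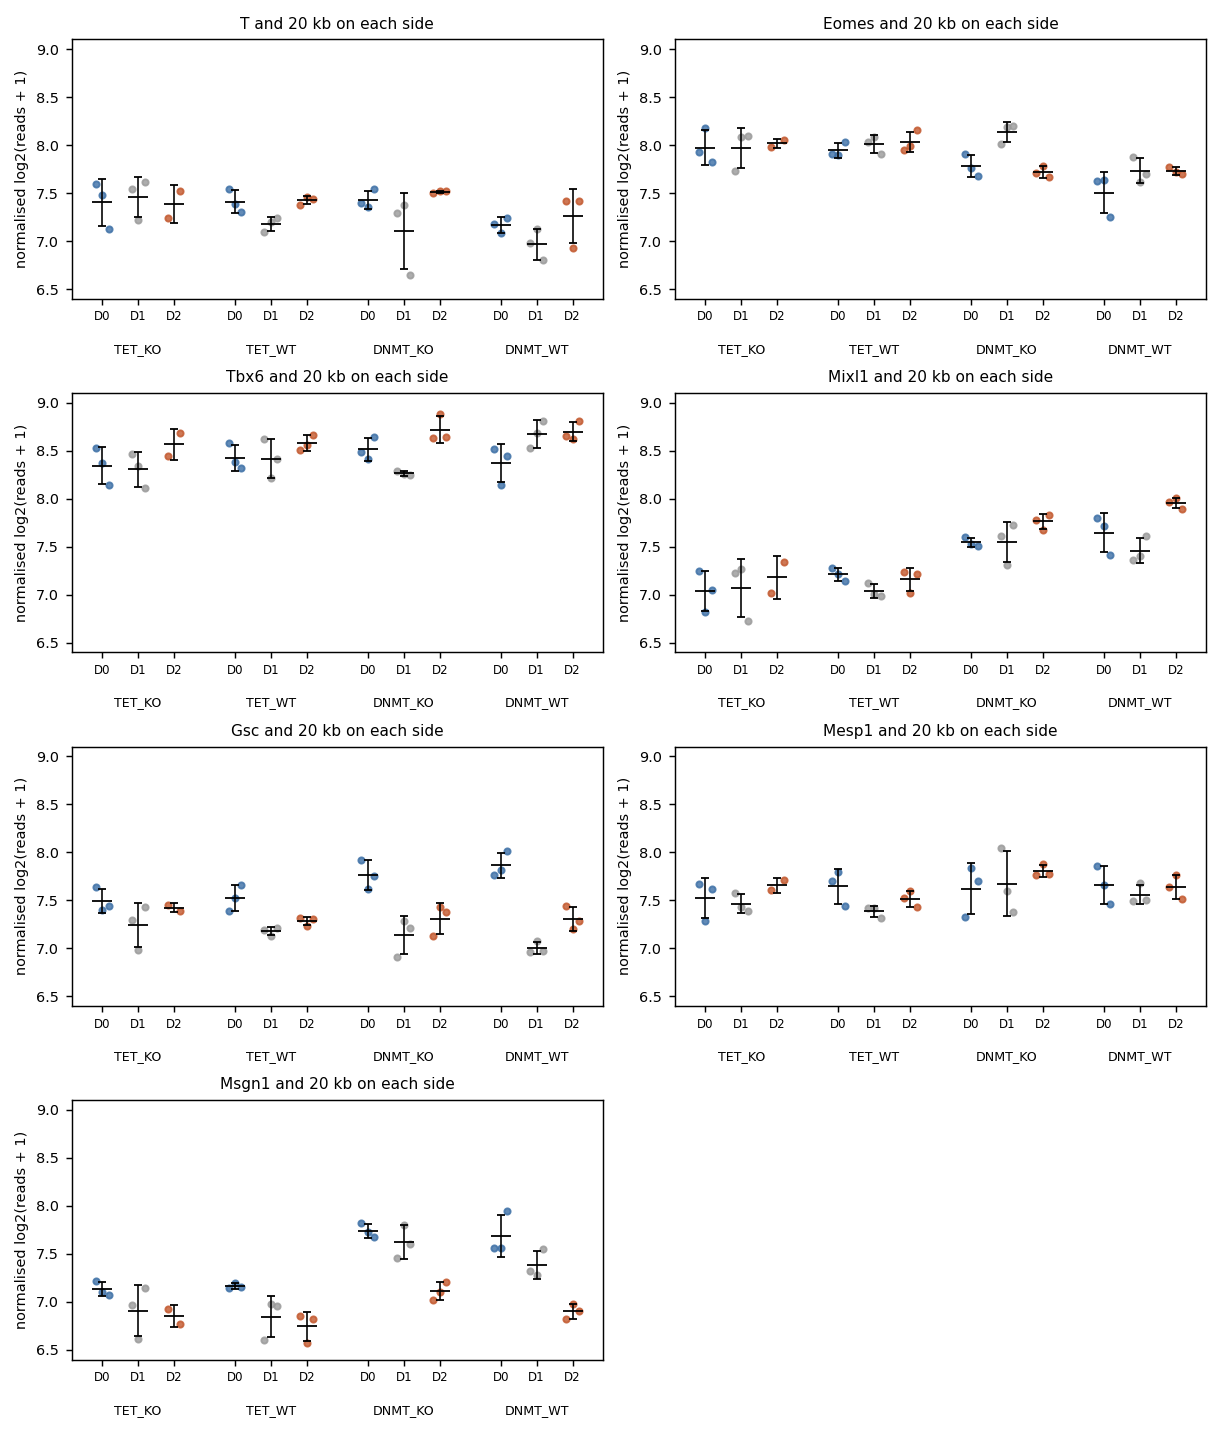
Normalised log2(reads + 1) (vertical axis) over each gene and 20 kb on each side, in each library by line and day (horizontal axis). Points are libraries, dashes are group means and bars are 1 SD. Gsc and Msgn1 fall in the DNMT lines, and Mixl1 lies lower in the TET lines than in the DNMT lines at every day.

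The windows of T, Eomes, Tbx6, Mixl1 and Mesp1 did not pass the test at D2 in any line. The Tbx6 window was higher at D2 than at D0 in all 4 lines, by 0.22 ± 0.13 in TET_KO, 0.15 ± 0.12 in TET_WT, 0.20 ± 0.12 in DNMT_KO and 0.33 ± 0.12 in DNMT_WT, with adjusted p = 0.649, 0.867, 0.457 and 0.152 in that order. The T window differed by at most 0.09 ± 0.15 between D2 and D0, in DNMT_WT, with a 95% interval of -0.23 to 0.41 there. The Mixl1 window read 7.97, 8.004 and 7.89 in DNMT_WT at D2, against 7.80, 7.72 and 7.41 at D0, a difference of 0.31 ± 0.13 (adjusted p = 0.245). The Eomes window differed by 0.23 ± 0.11 in DNMT_WT at D2 (adjusted p = 0.318) and the Mesp1 window by -0.02 ± 0.14 (adjusted p = 0.979). In the other lines the Mesp1 window differed by 0.13 ± 0.16 in TET_KO, -0.13 ± 0.14 in TET_WT and 0.18 ± 0.14 in DNMT_KO. The adjusted p was 0.890, 0.953 and 0.605 in that order. At D2 against D0, 2 of the 7 windows were called in DNMT_KO, 2 in DNMT_WT, and none in TET_KO or TET_WT. Of all 49554 windows 2.12% were called in DNMT_KO, 2.79% in DNMT_WT, 0.640% in TET_KO and 1.10% in TET_WT. No member tile was called in TET_KO at D2, where 0.881% of tiles were called; 3 rose and 4 fell there at an unadjusted p under 0.05, and limma voom on the reads called none. At an unadjusted p under 0.05 none of the 7 windows rose and none fell in TET_KO, and in TET_WT none rose and 2 fell, with 0 and 1 called by limma voom in that order.

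At D1 against D0, the Gsc window was the 1 of 7 called in DNMT_KO and in DNMT_WT, where 4.37% and 2.10% of all windows were called in that order. None was called in TET_KO or TET_WT, where 0.854% and 0.450% were called. Unadjusted, no window rose and 1 fell in TET_KO, and none rose and 2 fell in TET_WT, and limma voom called none in either. At Eomes a single tile was called, higher in DNMT_KO at D1. The tile chr9:118480001-118482000, in the gene body 1.81 to 3.81 kb from the start, read 0.22, 0.82 and 0.09 in DNMT_KO at D1, against -0.63, -2.44 and -2.60 at D0, a difference of 2.26 ± 0.51 (adjusted p = 0.0118). It rests on 30 reads at D1 against 9 at D0, of which 7 came from 1 library, and the call was lost without D0 replicate 2 or 3 or D1 replicate 2 (adjusted p up to 0.104). The call was also lost with limma voom, with only the groups compared in the fit and with thinned reads. The tile averaged -1.09 deposited log2 RPKM over D0 libraries and -0.66 over D2 libraries, against the lowest mean kept of -0.51. It was thus tested because of its D1 level. With no filter on tiles the call was kept (adjusted p = 0.00275). The Eomes window in DNMT_KO was higher at D1 by 0.35 ± 0.11 without passing the test (adjusted p = 0.0607).

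**Figure D4:**
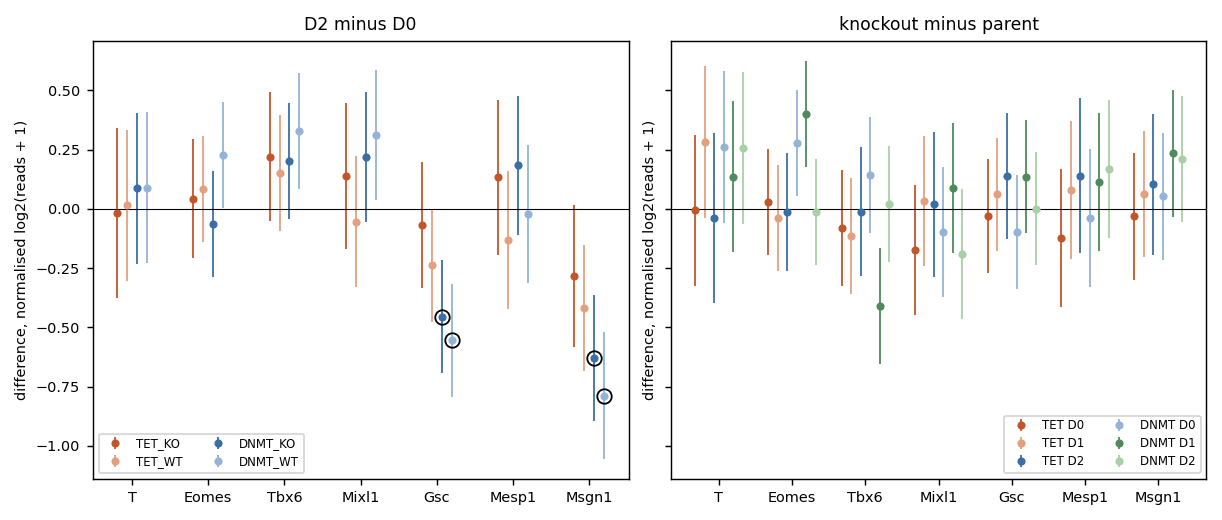
Difference in normalised log2(reads + 1) (vertical axis) for the window of each gene (horizontal axis), D2 minus D0 in each line (left) and knockout minus parent in each family and day (right). Bars are 95% intervals and black rings mark an adjusted p under 0.05. Rings stand on Gsc and Msgn1 in the DNMT lines in the left panel, and there is none in the right panel.

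Loss of the TET or DNMT enzymes did not give a called change at these loci, in tiles or in windows. For TET_KO against TET_WT, the window differences lay between -0.17 and 0.03 at D0, between -0.11 and 0.28 at D1 and between -0.04 and 0.14 at D2. Over the 7 windows, the 95% intervals reached at most from -0.45 to 0.31 at D0, from -0.36 to 0.60 at D1 and from -0.40 to 0.47 at D2. Of all tiles 0.110% were called at D0, 0.0654% at D1 and 0.0918% at D2, and of all windows 7.71% at D0, 6.98% at D1 and 5.16% at D2. At an unadjusted p under 0.05, none of the 66 tiles rose and 2 fell at D0, 2 rose and 3 fell at D1, and 2 rose and 1 fell at D2; no window reached that level. Limma voom on the reads called 1 tile at D0, none at D1 and none at D2, and no window. That tile, chr7:126770001-126772000 upstream of Tbx6, was lower in TET_KO by 1.94 on the log2 scale (-1.94) with an adjusted p of 0.0521 with limma on log2 RPKM.

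For DNMT_KO against DNMT_WT, the window differences lay between -0.10 and 0.28 at D0, between -0.41 and 0.40 at D1 and between -0.19 and 0.26 at D2. The extremes were at D1. The Eomes window read 8.01, 8.19 and 8.20 in DNMT_KO, against 7.87, 7.62 and 7.70 in DNMT_WT, a difference of 0.40 ± 0.11 (adjusted p = 0.0840). The Tbx6 window read 8.29, 8.26 and 8.24 in DNMT_KO, against 8.53, 8.68 and 8.81 in DNMT_WT, a difference of -0.41 ± 0.12 (adjusted p = 0.107). Neither pair of groups overlapped, which is a description and not a test. Of all tiles 0% were called at D0, 0.0184% at D1 and 0.0361% at D2, and of all windows 0% at D0, 0.496% at D1 and 0% at D2. Unadjusted, 2 member tiles rose and 2 fell at D0, 4 rose and 6 fell at D1, and 3 rose and 1 fell at D2, and 1 window rose at D0 and 1 rose and 1 fell at D1; limma voom called none.

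The change between D2 and D0 did not differ between knockout and parent in a called way for any member tile or window. In the TET family 0.000574% of tiles and 0.00202% of windows were called for this difference, and in the DNMT family 0% and 0%. Unadjusted, 2 member tiles were positive and 1 negative in the TET family, 1 was positive and 2 were negative in the DNMT family, and no window reached that level; limma voom called none.

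The Mixl1 window was lower in both TET lines than in both DNMT lines, as was the background of chromosome 1. Group means were 7.04 to 7.18 in TET_KO and 7.04 to 7.22 in TET_WT, and 7.55 to 7.76 in DNMT_KO and 7.46 to 7.95 in DNMT_WT. The background of chromosome 1, relative to all libraries, was -0.26 to -0.21 in TET_KO, -0.31 to -0.26 in TET_WT, 0.21 to 0.26 in DNMT_KO and 0.25 to 0.29 in DNMT_WT over the 3 days. No contrast compared the families, and the part of the chromosome level in the Mixl1 values was not tested. The 3 protein-coding genes whose 12 group means were most like those of Mixl1 all lie on chromosome 1: Cyp27a1 (Pearson r = 0.97), Tmem237 (0.97) and Ttll4 (0.96). The genes most like the other members lay on other chromosomes: Pgpep1l for Msgn1 (r = 0.96), Ap1b1 for T (0.94), Pdxp for Gsc (0.93), Chd2 for Eomes (0.92), Acot7 for Tbx6 (0.91) and Prtn3 for Mesp1 (0.91). These are descriptions over 12 group means that share libraries, picked as the highest among all candidate genes.

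Among other regulators of the streak and mesoderm, most windows did not pass the test. At D2, 0.640% of all windows were called in TET_KO, 1.10% in TET_WT, 2.12% in DNMT_KO and 2.79% in DNMT_WT. Of 11 posterior and mesoderm factors, none rose or fell at D2 in TET_KO, and none rose and 2 fell in TET_WT, DNMT_KO and DNMT_WT each. The median over the list was -0.12 in TET_KO, -0.03 in TET_WT, -0.21 in DNMT_KO and -0.17 in DNMT_WT, against 0.00 to 0.01 over all windows. The window of Sp5, a Wnt target, fell by 0.83 in DNMT_KO, by 0.65 in DNMT_WT and by 0.65 in TET_WT (adjusted p = 0.00972). Cdx1, a caudal homeobox factor, fell in DNMT_KO and TET_WT (-0.43 each), and Evx1, a posterior streak homeobox factor, fell in DNMT_WT (-0.61). Of 11 streak signals and cofactors, 1 rose in DNMT_KO, Wnt8a (0.41), a Wnt ligand, and 1 rose in DNMT_WT, Lefty2 (0.42), which limits Nodal. Of 9 presomitic and somite genes, Dll1, a Notch ligand, rose in TET_WT (0.58). None of 6 organiser and endoderm factors changed at D2. At D1 against D0 no gene of these 4 lists rose in any line, and none fell in TET_WT. Sp5 fell in TET_KO (-0.56), DNMT_KO (-0.55) and DNMT_WT (-0.70), and Cdx1 fell in TET_KO (-0.60). In DNMT_KO Pdgfra (-0.60), Foxf1 (-0.29) and Wnt3 (-0.46) fell too. Of all windows 0.854% were called at D1 in TET_KO, 0.450% in TET_WT, 4.37% in DNMT_KO and 2.10% in DNMT_WT. The day and the processing cannot be told apart there. In TET_KO against TET_WT, where 7.71% of all windows were called at D0, 6.98% at D1 and 5.16% at D2, no gene of these 4 lists rose at any day. Lefty2 fell at D0 (-0.45) and Gata4, an endoderm factor, at D0 (-0.36) and D1 (-0.48). Bmp4, a signal that induces the streak, fell at D1 (-0.50), Foxc2, a factor of the paraxial mesoderm, at D1 (-0.47), and Foxf1, a factor of the lateral mesoderm, at D1 (-0.36) and D2 (-0.50). The background of chromosome 14, which holds Gata4 and Bmp4, differed by -0.37 at D0 and at D1, that of chromosome 8, which holds Foxf1 and Foxc2, by -0.51 at D1 and -0.44 at D2, and that of chromosome 1, which holds Lefty2, by 0.05 at D0. The part of the chromosome level in these falls was not tested. In DNMT_KO against DNMT_WT no gene of these lists was called at any day.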

How the data were processed

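ATAC-seq was done on mouse embryonic stem cells and epiblast-like cells of 4 lines at 3 days, 35 libraries in 12 groups. The submitters' processing notes name Trim Galore 0.6.5, cutadapt 2.3, Bowtie2 2.4.1 and GRCm38. Steps on read ends, duplicates and repeats are not given in the sources used here. Per the file headers, the deposited values are log2 RPKM in 2-kb tiles. These were whole multiples of 1 read in 100% of tiles (tolerance 0.01 read, empty tiles at 0.9 read), from which reads were recovered. No per-sample column was left unused (0).

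Tested tiles were the highest 10% by mean log2 RPKM on autosomes and X (122723, lowest mean -0.51) plus tiles with an annotated gene end, 174323 in all. Of the tiles with no read at D0 and D2 (89649, of which 25345 had reads at D1) none was tested. The mean spans all days, so a tile high at D0 or at D1 could pass through that day alone. Of the 160 member tiles 66 were tested: 5 at T, 10 at Eomes, 21 at Tbx6, 6 at Mixl1, 4 at Gsc, 12 at Mesp1 and 8 at Msgn1. Windows of 49554 genes (20 kb on each side, pseudocount 1 read) were not filtered; 992 held no reads. The prior degrees of freedom were 3.39 for windows. After quantile normalisation, limma 3.58.1 in R 4.3.3 estimated 1 mean for each group, with 23 residual degrees of freedom and a trended prior variance. Tests were 2-sided with Benjamini-Hochberg adjustment within each of 16 contrasts, and features with an adjusted p under 0.05 are called. The fit was tested on simulated data.

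Reads summed over tiles exceeded the total used for RPKM by a factor that depended on family and day: 1.02 in the DNMT lines and 1.15 in the TET lines away from D1, and 2.03 to 2.05 at D1. Before normalisation the median tile shifted between D1 and D0 by 0.43 in TET_KO, 0.60 in TET_WT, 0.49 in DNMT_KO and 0.62 in DNMT_WT, and between TET_KO and TET_WT by -0.25 at D1 and -0.11 at D2; changes are relative to these shifts. The Mixl1 start was taken as its more accessible end. Named genes were all 7 members with each called tile and the start tile, and the genes with the highest correlation over 12 group means. In each contrast the called genes of the 4 streak and mesoderm lists were also named (at most the 4 largest changes). The other lists were summarised, with only Fn1 named. The members and lists were chosen with earlier results of these data known.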

Additional observations from a re-analysis of the deposited data

Results flagged for a closer look

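The Tbx6 window moved opposite ways at D1 in the DNMT family. All D1 libraries lay below all D0 libraries in DNMT_KO (-0.25) and above them in DNMT_WT (0.30), on the log2(reads + 1) scale, and neither change passed the test. The Mesp1 start tile did so at D2 between TET_KO and DNMT_WT. All D2 libraries lay above all D0 libraries in TET_KO (0.44 in log2 RPKM, 2 libraries at D2) and below them in DNMT_WT (-0.35). Neither of these Mesp1 changes passed the test. In DNMT_KO the group mean was 0.82 at D0 and 1.34 at D2, and in TET_WT 0.72 and 0.73, so the lines did not divide by family. Both items were flagged for differing between groups, and the share of all tiles or windows that do so is not given. For Tbx6 at D1 the day and the processing cannot be told apart. Neither difference between lines was tested as such.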

How the results depend on the processing

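The direction of each called tile and window was kept under all alternatives run. Leaving out all D1 libraries, chosen after seeing the data, called 1 member tile in TET_KO against TET_WT at D0 and 1 member window in TET_WT at D2, against 0 each; limma voom on the reads and the replicate block (replicate number within family) each also called that 1 tile, voom the 1 window too and 0 of 3 tiles in DNMT_KO at D1. Replicate numbers did not pair the libraries: deviations of libraries with the same number had a median r of 0.0022 (85 pairs) and those with different numbers -0.011 (170 pairs). Without quantile normalisation, 5 tiles in place of 2 were called in DNMT_WT at D1 (4 higher), 0 in place of 1 in TET_KO at D1 and in TET_WT at D1 and D2, and 1 window in place of 2 in DNMT_KO at D2. Centring each chromosome gave 1 tile in DNMT_WT at D1 and 3 windows in place of 1 in DNMT_KO at D1. The highest 5% of tiles gave 1 tile in DNMT_KO at D2 and 0 in TET_WT at D1. With no filter on tiles the counts were 0 in DNMT_KO at D2, 1 in DNMT_WT at D1 and at D2, 0 in TET_WT at D1 and D2, and 2 in DNMT_KO against DNMT_WT at D1, against 0. Thinned reads gave 0 tiles wherever any had been called. With only the groups compared in the fit, the counts were 0 tiles in DNMT_KO at D1, 1 in DNMT_KO at D2, 1 in DNMT_WT at D1 and D2 and 1 in TET_KO at D2, against 0, and 0 windows in the DNMT lines at D1 and D2. Windows of 10 kb gave 0 windows in DNMT_KO at D2 and in DNMT_WT at D1 and D2, and windows of at least 50 reads gave 1 in DNMT_KO at D2. The causes were not tested.

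Leaving out 1 library at a time, the tile counts ranged from 1 to 3 in DNMT_KO at D1, 0 to 2 in DNMT_KO at D2, 1 to 2 in DNMT_WT at D1, 0 to 3 in DNMT_WT at D2, 0 to 1 in TET_KO at D1 and at D2, 0 to 1 in TET_WT at D1 and at D2, 0 to 1 in TET_KO against TET_WT at D0 and 0 to 2 in DNMT_KO against DNMT_WT at D1. Window counts ranged from 1 to 2 in DNMT_KO at D1 and D2 and in DNMT_WT at D2, and 0 to 1 in DNMT_KO against DNMT_WT at D1. The uncalled Gsc window in TET_KO changed sign with windows of 10 kb (0.12 at D1, 0.13 at D2) and, at D2, without D0 replicate 1 (from -0.11 to 0.0037 over the libraries left out). Over all member windows and called tiles, 135 of 2107 alternative values changed sign, none of them called. The called tiles held 1 to 63 reads a library, which limits what could be called.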
